A study of Homo sapiens with 3 samples.

Results

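The genes described here are regulators and direct targets of the tumour suppressor p53, apart from the inhibitors of cyclin-dependent kinases, in AB12 mouse malignant mesothelioma cells. They were taken by gene symbol from a list of 33 names, chosen with earlier results of these data known. Of the names, 32 had values among the 13936 genes of the deposited table and all 32 were tested. Pmaip1, which encodes the death protein NOXA, was not analysed here. There were 2 libraries labelled shNF2, named library 20 and library 21 after the numbers in their titles, and 1 library labelled shSC, taken as the control hairpin. All 3 came from AB12 cells grown in RPMI with 10% serum. The labels give no strain, passage, clone or time after hairpin delivery, and do not say what 20 and 21 stand for or whether cultures were separate. All p-values here rest on the spread of these few libraries alone, and that spread may be technical.

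p53, the product of Trp53, is a transcription factor that cells hold at a low level until DNA damage, oncogene activity or other stress stabilises it. Its abundance is set mainly by the ubiquitin ligase MDM2, itself encoded by a p53 target gene, so that the pathway contains a negative feedback loop. Stabilised p53 activates genes that halt the cell cycle, repair DNA, adjust metabolism or cause cell death. In human mesothelioma the losses of NF2, which encodes merlin, and of CDKN2A, whose product ARF restrains MDM2, are both common.

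Reads assigned to genes numbered 25837151 in library 20, 26829163 in library 21 and 29532600 in shSC. Values are scaled counts as deposited, which are reads divided by 1 factor per library. They are not divided by transcript length, so levels are compared between libraries and not between genes. Nf2 had 486 and 458 scaled counts in shNF2 libraries 20 and 21, against 1539 in shSC. Its fitted log2 difference of -1.70 ± 0.24 (SE) passed with a limma adjusted p of 0.00555. Over the alternatives the adjusted p ran from 5.523e-06 with DESeq2 to 0.496 under quantile normalization, where Nf2 no longer passed. It also missed the threshold when limma was fitted with no trend (adjusted p = 0.187). Of 11 mesothelial markers 5 had values, summing to 39947 and 33759 scaled counts in libraries 20 and 21 and 43900 in shSC (43899.9). They did not share a direction. Msln, which encodes mesothelin, lay above shSC in both shNF2 libraries (log2 fold change 0.34, limma adjusted p = 0.688). The keratin genes Krt8, Krt18 and Krt19 lay below it, at -0.37, -0.36 and -0.86 (limma adjusted p = 0.664, 0.694 and 0.0996). For Krt19 the adjusted p ran from 0.0321 without the filter on low values to 0.640 over the alternatives. Krt7 rose, to 289.8 and 182.7 in libraries 20 and 21, against 49.7 in shSC (limma adjusted p = 0.0119, from 0.000197 to 0.523 over the alternatives). Wt1, Upk3b and Calb2 were not analysed here. Of the 10 macrophage markers 3 had values, summing to 2942 and 1855 in libraries 20 and 21 and 3367 in shSC, and most of each sum was Cd14. Lyz2, another of them, lay above shSC in both shNF2 libraries instead, with 260.5 and 107.9 in libraries 20 and 21 and 56.5 in shSC. Of the 8 fibroblast markers 3 had values, summing to 22.0 and 90.4 in libraries 20 and 21 and 14.6 in shSC. Most of the 90.4 was the smooth muscle actin gene Acta2, at 69.0 in library 21, 1.05 in library 20 and 0.974 in shSC. None of the 5 endothelial or 8 lymphocyte markers had a value. The part of other cell types in the values below was not tested, and in bulk RNA fewer cells of a type and less RNA per cell cannot be told apart.

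No p53 gene passed the test for shNF2 against shSC. limma called 0 of the 32 higher and 0 lower at an adjusted p under 0.05, where 0.414% and 0.429% of all 12813 tested genes were called in these directions. edgeR called 0 in either direction (background 0.226% higher and 0.406% lower), and so did DESeq2 (0.320% and 0.460%). With so few genes called anywhere, a count of 0 among 32 does not set these genes apart from the rest. At an unadjusted p under 0.05, limma had 4 members higher (12.5%, against 4.36% of all genes) and 1 lower (3.12%, against 4.91%). The 4 were Fas, Plk2, Mdm2 and Apaf1, and the 1 was Dram1. edgeR had the same members on each side at that level, against 4.03% of all genes higher and 5.10% lower. DESeq2 had them without Apaf1, 9.38% higher (against 2.51% of all genes) and 3.12% lower (against 3.04%). With limma fitted with no trend, only Fas, Plk2 and Dram1 stayed under that level. Apaf1 also missed it with TMM scaling, quantile normalization and GC and length correction. In its place Ccng1 was under that level with quantile normalization, and Phlda3 after GC and length correction. The smallest adjusted p was that of Fas at 0.135.

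Most of the genes lay somewhat above shSC in both shNF2 libraries. This held for 20 of 32 (62.5%), against 36.1% of all genes tested, and 9 (28.1%) lay below shSC in both, against 35.8%. For 12 members above shSC (37.5%) the distance from shSC to the nearer shNF2 library on the log2 scale exceeded the distance between the shNF2 libraries, against 20.0% of all genes, and for 5 below shSC (15.6%) the same held, against 18.2%. This count takes no account of size and includes Trp53, at a log2 fold change of 0.03. Most differences were small. As deposited, only Fas and Plk2 were at least 1.5-fold higher in both libraries (6.25%, against 3.92% of all genes). Only Dram1 was at least 1.5-fold lower in both (3.12%, against 4.13%). After GC and length correction, Plk2 no longer reached 1.5-fold in library 21 (log2 difference 0.42). The median log2 fold change of the 32 was 0.29, where that of all genes tested was 0.00, and it was 0.25 in library 20 and 0.16 in library 21. Both shNF2 libraries were set against the same shSC library, whose own error therefore enters each of these shares, and these shares carry no test.

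**Figure D1:**
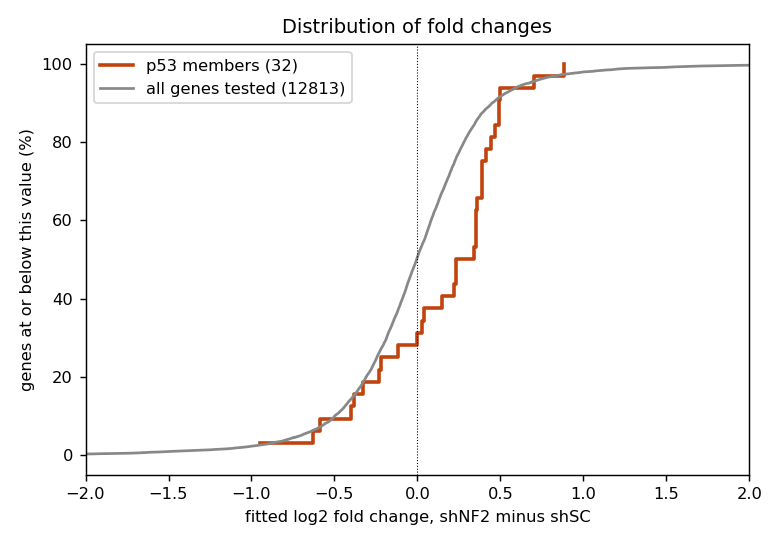
Cumulative distribution of the fitted log2 fold change of shNF2 against shSC, for the 32 p53 members (stepped line) and the 12813 genes tested (smooth line); the y axis gives the percentage of genes at or below each value. The members' line lies to the right of the other in its middle part, with a median of 0.29 against 0.00, and ends at 0.88 with Fas.

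The regulators of p53 itself showed 3 patterns. Trp53 had 2234 and 2231 scaled counts in libraries 20 and 21, against 2190 in shSC. The libraries were level, with each shNF2 library at 1.02 times shSC, and the log2 fold change was 0.03 with a 95% interval of -0.43 to 0.48. Mdm2, which encodes the ubiquitin ligase that degrades p53, had 11061 and 11266 scaled counts in libraries 20 and 21, against 7898 in shSC. Both shNF2 libraries lay above shSC and close to each other, 1.40 and 1.43 times its value, but the fit did not pass (log2 fold change 0.50 ± 0.21, SE, limma adjusted p = 0.465). Mdm4, the MDM2 relative that binds and masks the activation domain of p53, had 1103 and 1410 scaled counts in libraries 20 and 21, against 1243 in shSC. The shNF2 libraries lay on either side of shSC, with a log2 fold change of 0.00 (interval -0.51 to 0.51) that took a negative sign under TMM, quantile and GC correction.

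Ccng1, which encodes cyclin G1, a recruiter of phosphatase PP2A to MDM2, had 51184 and 49100 scaled counts in libraries 20 and 21, against 38148 in shSC. Both shNF2 libraries lay above shSC, as for 36.1% of all genes tested, and differed from each other by little. The log2 fold change of 0.39 ± 0.24 (SE) did not pass (limma adjusted p = 0.677). Rps27l encodes a ribosomal protein S27 relative that binds MDM2, and it had a log2 fold change in the other direction, of -0.38 ± 0.23 (SE). Its scaled counts were 35953 and 33408 in libraries 20 and 21, against 45240 in shSC. Rps27, its close relative, had 36558 and 30022 scaled counts in libraries 20 and 21, against 38684 in shSC. Which of the pair the authors' counting gave shared reads to is not stated, so the value of Rps27l is uncertain.

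**Figure D2:**
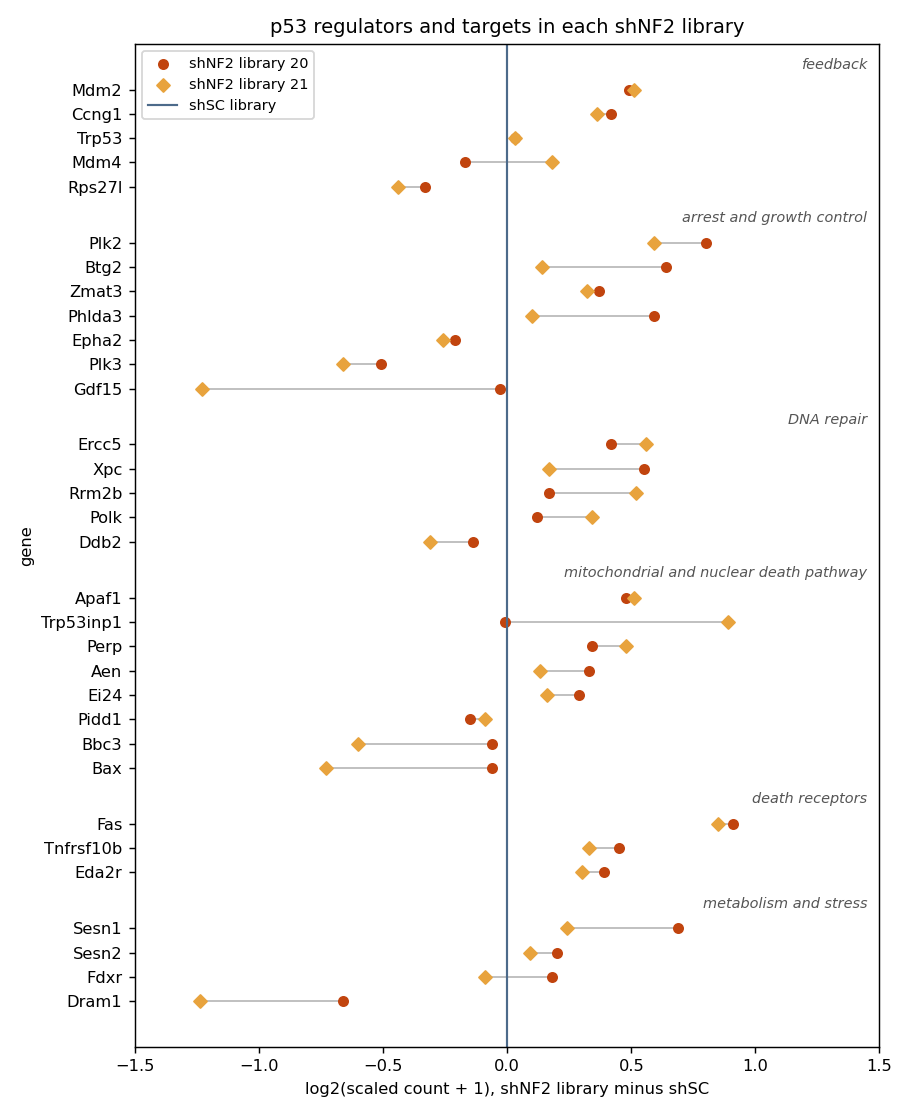
Difference in log2(scaled count + 1) between each shNF2 library and shSC (x axis) for the 32 members, grouped by role; circles are library 20, diamonds library 21, and the vertical line at 0 is shSC. Fas, at 0.91, lies farthest right for library 20 and Trp53inp1, at 0.89, for library 21, Dram1 lies farthest left for both, and Gdf15 and Trp53inp1 have library 20 near 0.

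Among the 7 genes of cell cycle arrest and growth control, 4 lay above shSC in both libraries (57.1%, against 36.1% of all genes tested) and 3 below (42.9%, against 35.8%), with a median log2 fold change of 0.35. With so few genes in a role group, these shares are descriptions only. Plk2, a polo-like kinase gene induced by p53 with a role at centrioles, had 5739 and 4967 scaled counts in libraries 20 and 21, against 3292 in shSC. Both shNF2 libraries lay above shSC, by 1.74 and 1.51 times. These are log2 differences of 0.80 and 0.59, which were 0.77 and 0.42 after correction for GC content and length. The log2 fold change was 0.70 with an interval of 0.24 to 1.15 before adjustment, and it did not pass over all genes (limma adjusted p = 0.220, from 0.124 to 0.648 over the alternatives). Plk3, another polo-like kinase gene, had 182 and 164 scaled counts in libraries 20 and 21, against 260 in shSC, a log2 fold change of -0.59 (interval -1.24 to 0.07). The relatives Plk2 and Plk3 therefore lay on opposite sides of shSC in both libraries, Plk2 above and Plk3 below, though neither passed.

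Zmat3, which encodes an RNA-binding protein that regulates splicing, had log2 differences of 0.37 in library 20 and 0.32 in library 21. For Btg2, an antiproliferative gene, and Phlda3, whose product competes with AKT for membrane lipids, library 20 carried most of the difference. Btg2 had log2 differences of 0.64 and 0.14 in libraries 20 and 21, and Phlda3 0.59 and 0.10. After correction for GC content and length, Btg2 had 0.59 and 0.04, and Phlda3 0.64 and 0.40. The gap between the shNF2 libraries thus narrowed for Phlda3 and not for Btg2. Epha2, the gene of an ephrin receptor kinase, had -0.21 and -0.26. Gdf15 encodes a secreted stress cytokine, and only library 21 departed from shSC: 294 and 127 scaled counts in libraries 20 and 21, against 300 in shSC (299.9). Of these 5 genes, Zmat3 and Epha2 had both shNF2 libraries farther from shSC than from each other.

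**Figure D3:**
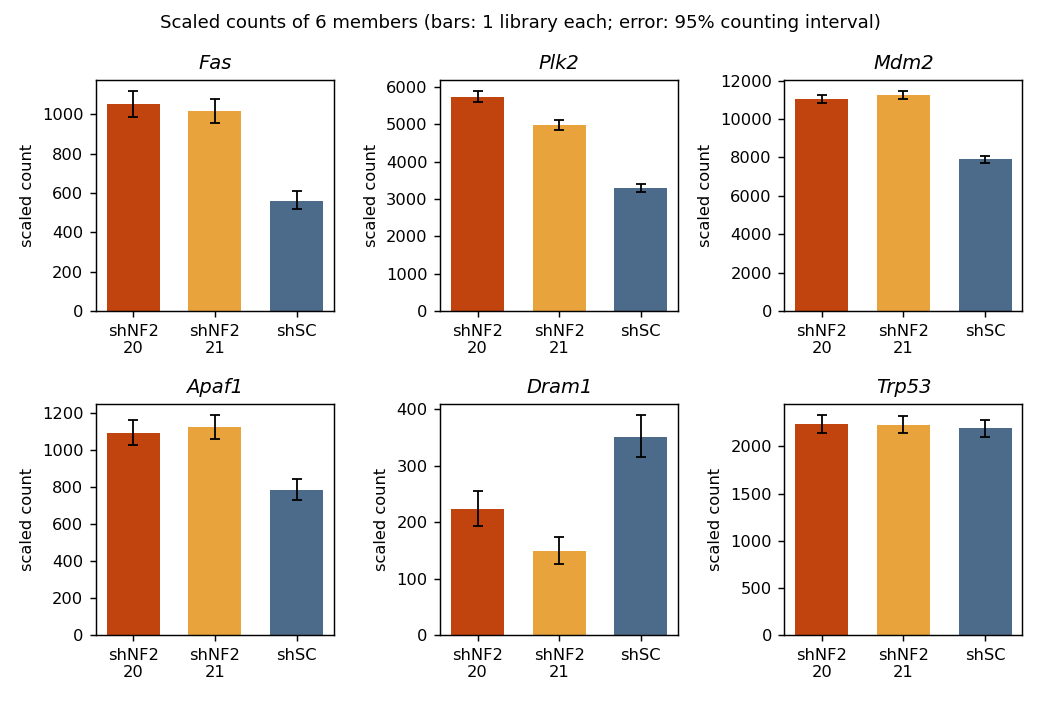
Scaled counts (y axis, from 0) of the 5 members with an unadjusted p under 0.05 and of Trp53 in shNF2 library 20, shNF2 library 21 and shSC; each bar is 1 library and the error bars are exact 95% Poisson counting intervals, which do not cover variation between cultures. Fas, Plk2, Mdm2 and Apaf1 have both shNF2 bars above shSC, Dram1 has both below, and the Trp53 bars are level at 2190 to 2234.

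The 5 DNA repair genes had a median log2 fold change of 0.35, and 4 of them (80%, against 36.1% of all genes) lay above shSC in both libraries. Ercc5 encodes the endonuclease XPG of nucleotide excision repair, and had log2 differences of 0.42 and 0.56 in libraries 20 and 21 (fitted 0.49, interval -0.03 to 1.01). Rrm2b, which encodes the p53-inducible subunit of ribonucleotide reductase, had 0.17 and 0.52, and Polk, a translesion polymerase gene, had 0.12 and 0.34. As deposited, library 21 was the higher of the shNF2 pair for these 3 genes. Its log2 ratios to library 20 were 0.14 for Ercc5, 0.35 for Rrm2b and 0.22 for Polk. After correction for GC content and length they were -0.06, 0.24 and 0.09, so the order did not hold for Ercc5. Xpc and Ddb2, whose products recognise damaged bases at the start of nucleotide excision repair, went separate ways: Xpc had 0.55 and 0.17, and Ddb2 had -0.14 and -0.31. Xpc had few reads, with scaled counts of 201 and 155 in libraries 20 and 21 and 137 in shSC. The counting interval of its ratio of library 21 to shSC ran from 0.892 to 1.42, so a difference there was not detectable at this depth.

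All 3 death receptor genes lay above shSC in both shNF2 libraries (36.1% of all genes did), and none passed the test. As deposited, each did so by more than the shNF2 libraries differed (20.0% of all genes). After correction for GC content and length, Eda2r had log2 differences of 0.37 and 0.10 in libraries 20 and 21. Its shNF2 libraries then differed from each other by more than library 21 differed from shSC. Fas, the receptor for FAS ligand, had 1053 and 1017 scaled counts in libraries 20 and 21, against 562 in shSC. Both shNF2 libraries were nearly double shSC and close to each other, with ratios of 1.88 and 1.81 and exact 95% counting intervals of 1.69 to 2.08 and 1.63 to 2.01. Its log2 fold change of 0.88 ± 0.23 (SE) was the highest of the 32, with a limma adjusted p of 0.135. That adjusted p ran over the alternatives from 0.0557 without the filter on low values to 0.640 under quantile normalization. Tnfrsf10b, the gene of the mouse TRAIL death receptor, had 1600 and 1465 scaled counts in libraries 20 and 21, against 1167 in shSC. Eda2r, the X-linked receptor gene for ectodysplasin A2, had 3892 and 3653, against 2969 in shSC. Their fitted log2 fold changes were 0.39 and 0.34, with intervals of -0.08 to 0.87 and -0.10 to 0.79.

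Genes of the mitochondrial and nuclear death pathway were split, 4 of 8 above shSC in both libraries (50%, against 36.1% of all genes) and 3 below (37.5%, against 35.8%), with a median log2 fold change of 0.23. Apaf1, which encodes the apoptosome scaffold that activates caspase-9, had 1090 and 1120 scaled counts in libraries 20 and 21, against 784 in shSC. Both shNF2 values lay above shSC and near each other, and the log2 fold change of 0.49 (interval 0.01 to 0.98 before adjustment) did not pass over all genes (limma adjusted p = 0.528). Bax, which encodes a pore-forming protein of the outer mitochondrial membrane, had 6431 and 4049 scaled counts in libraries 20 and 21, against 6712 in shSC. Library 20 lay just below shSC and library 21 well below, so the fitted log2 fold change of -0.40 (interval -0.96 to 0.17) rests on library 21. Bbc3, which encodes the BH3-only protein PUMA, had the same order, with 98.3 and 67.1 scaled counts in libraries 20 and 21, against 102 in shSC.

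Perp, the gene of a desmosomal membrane protein, had log2 differences of 0.34 and 0.48 in libraries 20 and 21. Aen, an apoptosis-enhancing nuclease gene, had 0.33 and 0.13, and Ei24, which encodes a membrane protein of the endoplasmic reticulum, had 0.29 and 0.16. These 3 were above shSC in both libraries, whereas Pidd1, the scaffold gene of the PIDDosome, had -0.15 and -0.09. Trp53inp1, whose product acts in the nucleus and in autophagy, had 3112 and 5794 scaled counts in libraries 20 and 21, against 3125 in shSC. Library 20 was level with shSC and library 21 was 1.85 times as high, so the shNF2 libraries did not share a direction.

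Of 4 metabolism and stress genes, 2 lay above shSC in both libraries (50%, against 36.1% of all genes) and 1 below (25%, against 35.8%). Dram1, which encodes a lysosomal membrane protein linked to autophagy, had 223 and 149 scaled counts in libraries 20 and 21, against 351 in shSC. Both shNF2 libraries lay below shSC, library 21 the lower of them, with ratios of 0.634 and 0.423. Its log2 fold change of -0.95 (interval -1.64 to -0.25 before adjustment) was the lowest of the 32 and did not pass (limma adjusted p = 0.308, from 0.162 to 0.749 over the alternatives). The sestrins Sesn1 and Sesn2, whose products restrain mTORC1, had log2 differences of 0.69 and 0.24 for Sesn1 and 0.20 and 0.09 for Sesn2 in libraries 20 and 21. Fdxr, the ferredoxin reductase gene, had 0.18 and -0.09.

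The shNF2 libraries differed from each other by at least 1.5-fold at 3 members, 1 higher in library 21 (3.12%, against 5.98% of all genes tested) and 2 lower (6.25%, against 7.69%). Trp53inp1 was higher in library 21 than in library 20, with a ratio of 1.86 and an exact 95% counting interval of 1.78 to 1.95. Bax and Gdf15 were lower in library 21, with ratios of 0.630 (0.605 to 0.655) and 0.433 (0.349 to 0.535). These compare 2 libraries, and the intervals cover counting error only. Over all tested genes that had human transcripts as stand-ins for GC content, the median log2 ratio of library 21 to library 20 was 0.14 for the 3343 genes under 45% GC and -0.20 for the 3432 genes at 55% or more. The members showed medians of 0.03 for the 11 in the first class and -0.23 for the 10 in the second. The stand-ins for Gdf15 and Bax had 61.5% and 60.6% GC, and Trp53inp1 had none. After subtraction of each library's trend over GC and length, Gdf15 had a log2 ratio of -0.95 and Bax -0.42 between library 21 and library 20, against -1.20 and -0.67 without it. Between library 21 and shSC the corrected log2 difference of Bax was -0.44, against -0.73 without correction.

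**Figure D4:**
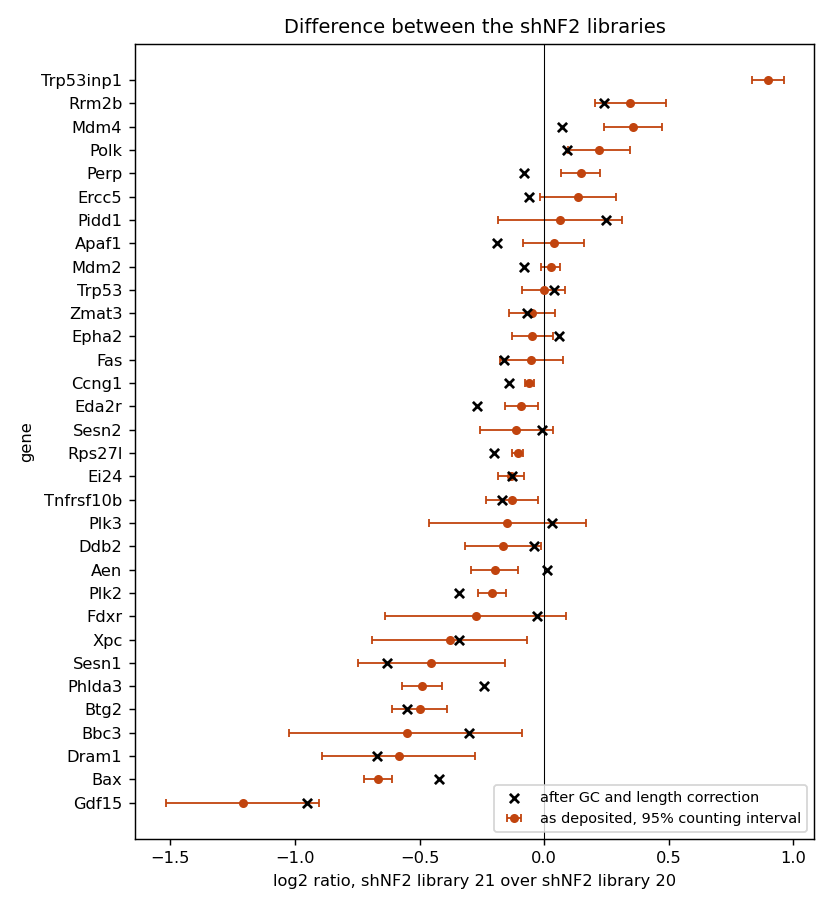
Log2 ratio of shNF2 library 21 to shNF2 library 20 (x axis) for each of the 32 members; circles are the deposited values with exact 95% counting intervals, and crosses are values after subtraction of each library's trend over GC content and transcript length. Trp53inp1, at the top, has no cross; Gdf15 and Bax lie lowest, and their crosses are nearer 0.

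Other genes of the pathway came from lists chosen with earlier results of these data known. Of 24 tested kinases and regulators upstream of p53, 0 passed limma, edgeR or DESeq2, and 1 had an unadjusted limma p under 0.05 (4.17% higher, against 4.36% of all genes). In both libraries 13 lay above shSC (54.2%, against 36.1% of all genes) and 5 below (20.8%, against 35.8%). The 1 was Ppm1d, which encodes the phosphatase WIP1, an inhibitor of p53 signalling and itself a p53 target. It had 616 and 534 scaled counts in libraries 20 and 21, against 347 in shSC, and a fitted log2 difference of 0.72 ± 0.26 (SE), which did not pass (limma adjusted p = 0.336). Both shNF2 values lay well above shSC. Hipk2, a kinase gene that acts on p53, lay below shSC in both with a log2 fold change of -0.50, and the checkpoint kinase gene Chek1 had 0.37. The DNA-dependent protein kinase gene Prkdc had 0.47, the damage adaptor gene Trp53bp1 0.37 and the lysine methyltransferase gene Setd8 0.35. Cdkn2a was not analysed here.

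Of 51 further p53 targets tested, 0 passed by limma, edgeR or DESeq2, with 4 higher (7.84%, against 4.36% of all genes) and 1 lower (1.96%, against 4.91%) at an unadjusted limma p under 0.05. In this list 25 lay above shSC in both libraries (49%, against 36.1%) and 12 below (23.5%, against 35.8%), with a median log2 fold change of 0.12. Cdkn1a, which encodes the CDK inhibitor p21 and is the best known arrest target of p53, had 7259 and 5871 scaled counts in libraries 20 and 21, against 5292 in shSC. Both lay above shSC, library 20 more so, and the log2 fold change of 0.30 ± 0.22 (SE) did not pass (limma adjusted p = 0.731). Gadd45b, a stress sensor gene, had 282 and 238 scaled counts in libraries 20 and 21, against 135 in shSC, with a log2 fold change of 0.93. Slc19a2, a thiamine transporter gene, had 0.61, Gtse1, whose product antagonises p53 in G2, had 0.67, and Ptprv, a phosphatase gene with few reads, had 1.12.

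Ccng2, the relative of Ccng1, went the other way from it. It had 4176 and 4297 scaled counts in libraries 20 and 21, against 6642 in shSC. Both shNF2 libraries lay below shSC and close to each other, and the fitted log2 difference of -0.65 ± 0.21 (SE) did not pass (limma adjusted p = 0.254, from 0.0957 to 0.669 over the alternatives). Lif, which encodes a cytokine of the IL-6 family, had -0.48.

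**Figure D5:**
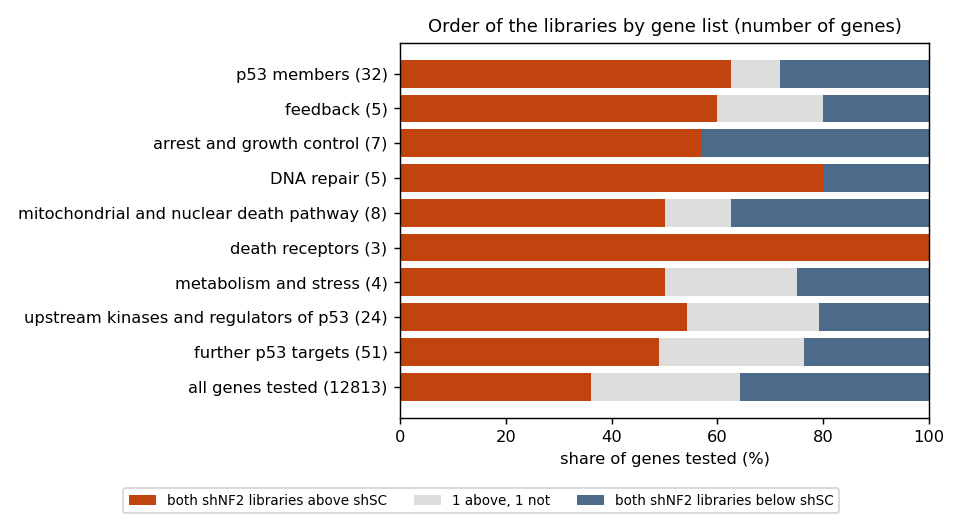
Share of tested genes (x axis, percent) whose scaled count lay above shSC in both shNF2 libraries (left segment), below it in both (right segment) or neither (middle), for the p53 members, their role groups, the other pathway lists and all genes tested; the number of genes is in brackets. The left segment is 62.5% for the members and 36.1% for all genes, and 100% for the 3 death receptor genes.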

How the data were processed

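The members and gene lists were chosen with earlier results of these data known. The authors deposited 1 table of gene signal, named as scaled counts, with 1 column per library. The submitters' processing notes list DESeq 1.22.1, HTSeq 0.5.3, STAR 2.5.0a and cutadapt 1.6 beside the build mm10, without saying what each did. The organism label reads human; the gene identifiers are mouse, and values were treated as mouse. Every value was a whole number of reads (tolerance 0.001) divided by 1 factor per library, 0.956, 1.03 and 1.03 for library 20, library 21 and shSC (100% of values). The smallest total of a gene was 15 reads; no source used here gives a filter. Another 4 rows naming no gene, with 48.7%, 47.7% and 48.6% of all reads in library 20, library 21 and shSC, were left out.

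Values were taken as log2(scaled count + 1), a scale that understates changes of low genes. The 12813 genes averaging 10 or more entered limma 3.58.1 (R 4.3.3, trended variance), and p-values were adjusted by Benjamini-Hochberg across them (threshold 0.05). Only the 2 shNF2 libraries inform the spread, which limma shrinks across genes (prior degrees of freedom 11.9, median SE 0.259); shSC, being single, is assumed to vary as they do. Intervals of fitted values are 95% and unadjusted; counting intervals are exact and cover counting error only. The recovered reads were also tested by DESeq2 1.42.0 and by the quasi-likelihood test of edgeR 4.0.16. GC content and length were medians of human GENCODE protein-coding transcripts of the same gene symbol, for 10336 tested genes (80.7%) and 31 members, and their trends were fitted with mgcv 1.9.3. Scripts were tested on simulated data. Members given as scaled counts in each library were Trp53, Mdm2, Mdm4, Ccng1, Bax and those with an unadjusted p under 0.05. Members passing in any alternative (none did) and members at least 1.5-fold from shSC in both libraries were given likewise. Gdf15, Trp53inp1, Rps27l, Plk3, Xpc, Bbc3, Tnfrsf10b and Eda2r were added after their values were seen. The remaining members were given as log2 differences of each shNF2 library from shSC. Of the other pathway lists, Cdkn1a, Cdkn2a and the 6 genes with the smallest p were named.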

Additional observations from a re-analysis of the deposited data

How the results depend on the processing

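No member passed under any of the 11 tested alternatives: pseudocounts of 0.5 and 10, no filter, a mean of at least 50, TMM, quantile normalization, GC and length correction (31 members), robust limma, limma with no trend, DESeq2 and edgeR. The smallest adjusted p of a member was 0.0557, for Fas with no filter. The number of members above shSC in both libraries was 20 under each filter and scaling. After GC and length correction, this was 20 of 31, with Fdxr (0.22 and 0.19) in place of Trp53 (-0.02 and 0.02). The number below shSC in both was 9, but 8 under quantile normalization and under GC and length correction. The median over members was 0.16 and 0.25 with 1 shNF2 library left out in turn, 0.16 without library 20, and from 0.23 (GC and length correction) to 0.29 otherwise. Among members, signs turned for Mdm4, at -0.0047 with TMM, -0.04 with quantile normalization and -0.13 after GC and length correction, and for Pidd1, at 0.04 after that correction; the cause was not tested. With 1 shNF2 library left out, signs turned for the members whose shNF2 libraries lay on either side of shSC: Fdxr at -0.09 without library 20, and Mdm4 at -0.17 and Trp53inp1 at -0.01 without library 21. Calls over all genes were 53 higher and 55 lower, against 110 and 122 without the filter, 29 and 52 with edgeR, and 0 and 0 both under quantile normalization (882 genes at an unadjusted p under 0.05) and with limma without a trend (1036). No paired analysis was possible because there was only 1 shSC library. Among members depth limits Bbc3, Fdxr, Xpc, Sesn1 and Gdf15 most, which had the widest counting intervals for library 21 over shSC.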

Other observations

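The genes given here act beside the members in cell death and stress, and are among the 51 further p53 targets counted above. None of them passed the test, where limma called 0.414% of all tested genes higher and 0.429% lower. They were chosen after their values were seen. Bid, which links death receptors to mitochondria, had 2980 and 2561 scaled counts in libraries 20 and 21, against 2262 in shSC. Bak1, the partner of Bax in pore formation, had 1613 and 2022, against 1750 in shSC (1749.7), with libraries on either side of it. The survival gene Bcl2l1 had 7057 and 6077, against 5575 in shSC. Casp8, the caspase activated at death receptors, had a log2 fold change of 0.12, and Casp9, the caspase activated by APAF1, had -0.11. Within the GADD45 family, Gadd45a had a log2 fold change of -0.18 (interval -0.71 to 0.35), Gadd45b 0.93 (0.28 to 1.59) and Gadd45g 0.70 (-0.11 to 1.51); no test of the difference between them was run.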
